A study of Mus musculus with 15 samples.

Results

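The genes described here are 48 mouse genes whose products carry cells through G2 and mitosis. They were chosen by symbol from textbook roles and kept where the table held a value above 0 in at least 3 libraries. All 48 were in the table of 23420 genes and all 48 met that minimum, 45 of them with a value above 0 in all 15 libraries and 3 in 14, so the minimum removed no member. Entry into mitosis is set by the kinase Cdk1 bound to cyclins A and B, which Cdc25 phosphatases switch on. Polo and Aurora kinases then direct spindle building, the spindle checkpoint holds anaphase until chromosomes are attached, and the anaphase-promoting complex ends mitosis by having cyclins destroyed. In germinal centres, B cells are known to divide mainly in the dark zone, after selection in the light zone, and plasmablasts are the dividing precursors of plasma cells.

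RNA was measured in pools of 100 sorted cells from lymph nodes draining an immunization, with 3 libraries in each of 5 groups. Donor B cells were CD45.1+ and carried B1-8hi (KI/+), a knocked-in antigen receptor heavy chain that binds the hapten NP. They were moved into C57BL6 hosts that received NP-CGG/CFA (adjuvant), and on day 12 cells were taken. GC-PB were plasmablasts sorted as CD138hi CD44hi tdTomato+ from donors that, besides B1-8hi (KI/+), carried the transgene S1pr2-ERT2cre Tg and the reporter ROSA-Ai14 (KI/+), with tamoxifen given on days 6, 7 and 8. In these donors Cre is driven by S1pr2, a gene of germinal centre B cells. The tdTomato label thus marks cells that had S1pr2-driven Cre when tamoxifen was given, and the cells descended from them. Fraction 1 (Bcl6lo CD69hi), Fraction 2 (Bcl6hi CD69hi) and Fraction 3 (Bcl6hi CD69lo) were light zone germinal centre B cells, and DZ were CXCR4hi CD86lo dark zone cells. These 4 groups came from donors with Bcl6-YFP (KI/+) besides B1-8hi (KI/+) and are not labelled as given tamoxifen. The replicates are separate library preparations, with no word on whether different animals gave them, so each p-value measures the spread between libraries, which may be technical. The ages of the mice are not given in the sources used here.

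Each deposited value was taken as a number of molecules times 1 constant of its library, between 0.105 and 0.362, with 184103 to 376992 molecules behind a library. Levels below are at equal library totals, on which 1 molecule is worth 0.107 to 0.233. The sum of 6 plasma cell markers was 1973 to 2609 in GC-PB and 23.3 to 74.9 in the other libraries. The summed B cell markers ran from 59.4 to 79.4 in GC-PB, from 88.6 to 103 in Fraction 1, from 161 to 170 in Fraction 2, from 212 to 242 in Fraction 3 and from 202 to 227 in DZ. Markers of NK cells were at 0 in every library, and erythroid markers summed to at most 0.107. Markers of T cells summed to at most 5.88, those of myeloid cells to at most 0.641 and those of stroma and endothelium to at most 1.27. The T cell sum was mostly Lck, with group means of up to 5.02. Cd3e, Cd4 and Il7r were at 0 in every library, and Cd3d, Cd3g and Cd8a at 0.413 or less. The stroma and endothelium sum was mostly Pecam1. The libraries fell into sets that the group labels do not name: GC-PB and Fraction 1 had constants of 0.305 to 0.362, Xist at 8.94 to 14.4 and the Y-linked Ddx3y at 0.0406 or less, whereas Fraction 2, Fraction 3 and DZ had constants of 0.105 to 0.139, Xist at 0 and Ddx3y at 3.91 to 6.21. Fraction 1 vs Fraction 2 crosses this divide with every library, so the sex of the donors or hosts, the constant and the fraction cannot be told apart in it, whereas each of the other 4 comparisons lies on 1 side. In GC-PB vs Fraction 1 the cell type cannot be told apart from the donor genotype and the tamoxifen.

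Together the 48 genes took 0.270% ± 0.0623 of the library total in GC-PB, 0.356% ± 0.0320 in Fraction 1, 0.777% ± 0.00292 in Fraction 2, 0.780% ± 0.0192 in Fraction 3 and 0.832% ± 0.141 in DZ (SD, n = 3 each). The summed level at equal totals was 76.7, 115 and 121 in the GC-PB libraries, 148, 140 and 124 in Fraction 1, 301, 299 and 299 in Fraction 2, 309, 294 and 301 in Fraction 3, and 347, 358 and 259 in DZ. Every GC-PB and Fraction 1 library lay below every library of the other groups, and DZ replicate 3 lay below all Fraction 2 and Fraction 3 libraries. The sums stand for 500 molecules per library on average in GC-PB, 1190 in Fraction 1, 2611 in Fraction 2, 1839 in Fraction 3 and 2183 in DZ. The order depends on the scale: in deposited units, which keep the unequal library totals, the sum averaged 179 ± 53.7 in GC-PB, 378 ± 39.5 in Fraction 1, 300 ± 12.1 in Fraction 2, 225 ± 21.2 in Fraction 3 and 255 ± 58.0 in DZ (SD, n = 3 each). Fraction 1 was thus 0.458 times Fraction 2 at equal totals and 1.26 times Fraction 2 as deposited, while GC-PB was below Fraction 1 on both, at 0.759 and 0.475 times. A level at equal totals is a share of a total of 38594. The plasma cell marker Igj alone averaged 1800 of it in GC-PB and 6.02 in Fraction 1. The part of such RNAs in the lower levels of GC-PB was not tested. In pools of sorted cells, fewer cells in mitosis and less of each RNA per cell cannot be told apart.

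**Figure D1:**
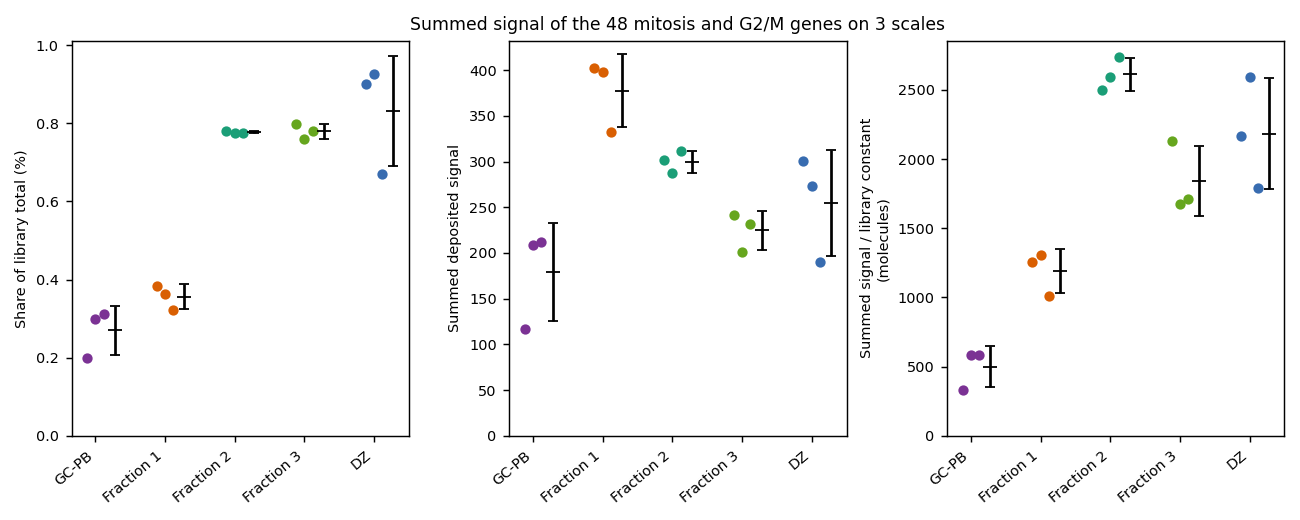
Summed signal of the 48 genes in each library, as a share of the library total in percent, in deposited units, and divided by the constant of the library (molecules). Points are libraries, and the bars to their right give mean ± SD (n = 3 per group). GC-PB and Fraction 1 lie lowest as a share of the total, at 0.270% and 0.356%, whereas Fraction 1 is highest in deposited units, at 378.

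By group means at equal totals, 26 members were highest in DZ, 14 in Fraction 2, 8 in Fraction 3 and none in Fraction 1 or GC-PB. GC-PB was lowest for 39 members and Fraction 1 for 9, and these groups held both of the lowest means for 46 of 48 members. The exceptions were Cks2, whose Fraction 1 mean was above those of Fraction 3 and DZ, and Ube2s. In 33 members every Fraction 2, Fraction 3 and DZ library lay above every GC-PB and Fraction 1 library, as in 4.69% of all genes tested. In 10 members the means ran, from lowest to highest, through GC-PB, Fraction 1, Fraction 2, Fraction 3 and DZ, among them Ccnb2, Cdc25b, Cenpe and Cdc20. Within groups, single libraries stood low across many members: GC-PB replicate 1 was the lowest of its group for 34 of 48, DZ replicate 3 for 34 and Fraction 1 replicate 3 for 27.

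**Figure D2:**
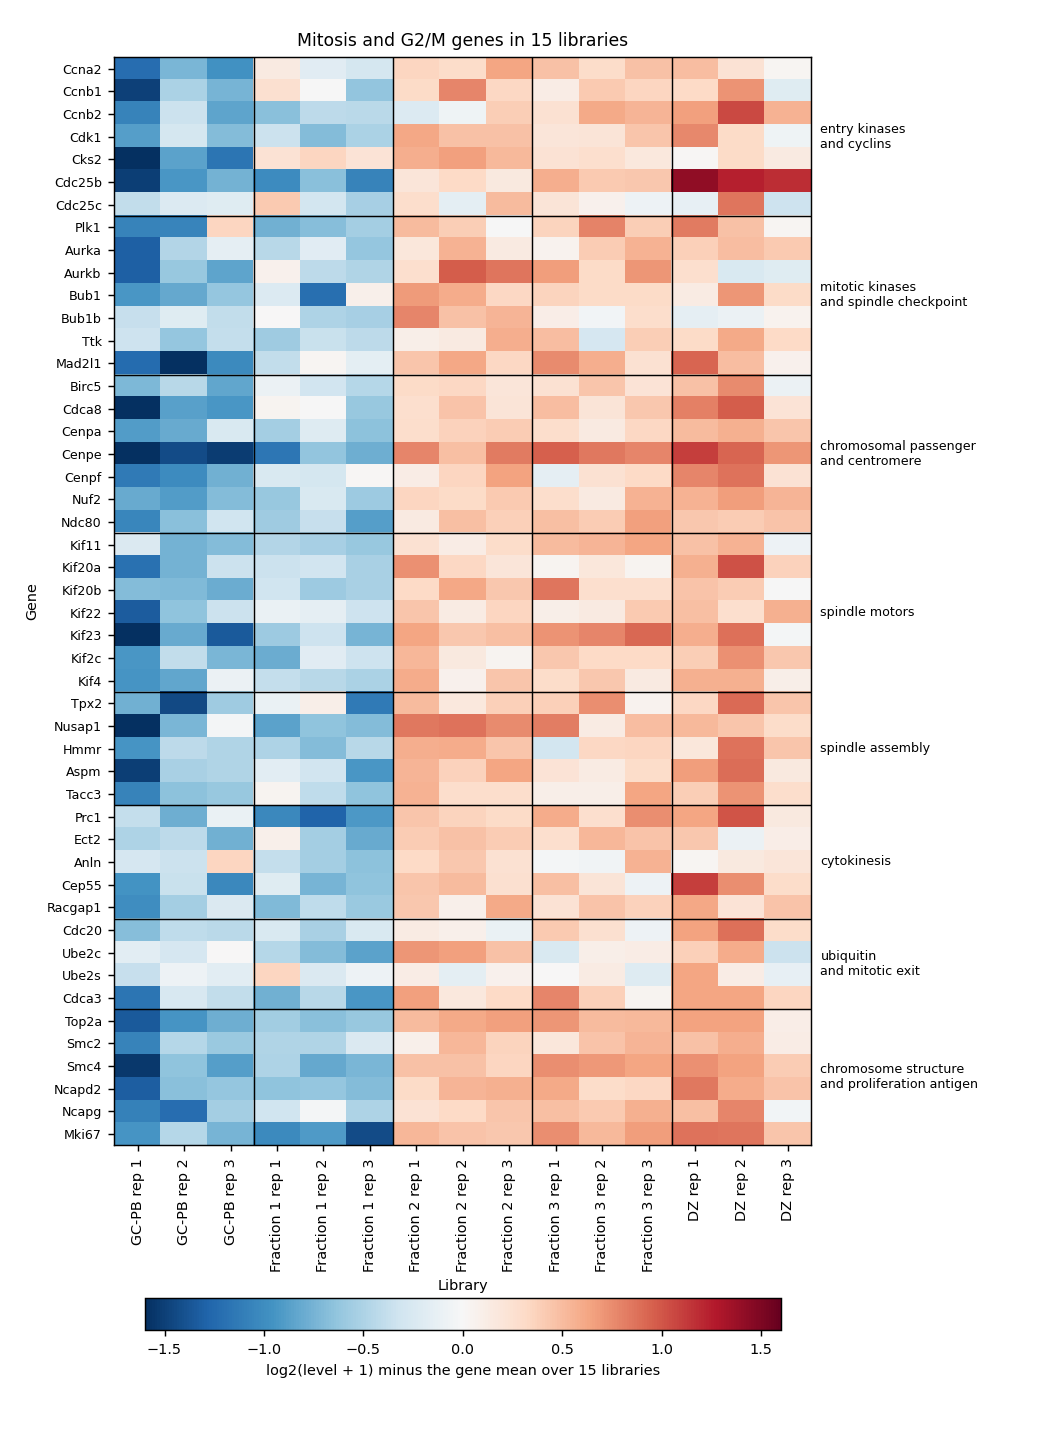
log2(level + 1) at equal totals of each of the 48 genes (rows, grouped by role) in each of the 15 libraries (columns, GC-PB to DZ), less the mean of that gene over the libraries. Red is above and blue below the mean of the gene. The 6 columns of GC-PB and Fraction 1 are blue for nearly all genes, and Cdc25b is reddest in DZ.

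Promoters of a few members are shown next. They were picked, leave out Cdc25b, Bub1b and Mki67, and do not stand for the counts over the members given below. Many G2/M genes are known to be held by 2 short elements. These are a cell-cycle homology region whose core is TTTGAA and upstream CCAAT boxes bound by NF-Y. The stretches are the 120 bases before the RefSeq start site on GRCm38.p6, 5′ to 3′ on the strand of the gene, with TTTGAA and CCAAT in capitals on either strand (TTCAAA and ATTGG are their reverse complements). Top2a (chr11:99024190-99024309, minus strand), Cdk1 (chr10:69352913-69353032, minus strand), Ube2c (chr2:164769809-164769928, plus strand) and Kif11 (chr19:37376262-37376381, plus strand) were called lower in Fraction 1 vs Fraction 2. Cdc20 (chr4:118437344-118437463, minus strand), Cks2 (chr13:51645112-51645231, plus strand) and Ube2s (chr7:4812341-4812460, minus strand) were not.
Top2a: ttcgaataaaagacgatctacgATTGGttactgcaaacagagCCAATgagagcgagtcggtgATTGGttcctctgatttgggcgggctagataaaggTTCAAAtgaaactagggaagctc
Cdk1: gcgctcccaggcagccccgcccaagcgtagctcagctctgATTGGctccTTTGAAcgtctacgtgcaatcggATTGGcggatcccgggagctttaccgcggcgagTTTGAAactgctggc
Ube2c: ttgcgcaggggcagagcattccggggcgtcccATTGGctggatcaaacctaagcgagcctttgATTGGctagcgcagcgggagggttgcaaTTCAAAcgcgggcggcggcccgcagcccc
Kif11: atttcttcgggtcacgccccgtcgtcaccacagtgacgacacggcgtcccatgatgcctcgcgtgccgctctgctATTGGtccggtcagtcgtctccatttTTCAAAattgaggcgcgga
Cdc20: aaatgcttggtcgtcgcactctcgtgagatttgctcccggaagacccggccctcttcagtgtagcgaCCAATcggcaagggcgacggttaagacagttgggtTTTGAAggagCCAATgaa
Cks2: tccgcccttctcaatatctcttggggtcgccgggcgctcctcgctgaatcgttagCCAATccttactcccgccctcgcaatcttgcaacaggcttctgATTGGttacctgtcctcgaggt
Ube2s: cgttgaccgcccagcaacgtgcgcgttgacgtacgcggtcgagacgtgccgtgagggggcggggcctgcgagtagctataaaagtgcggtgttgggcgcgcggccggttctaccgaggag
A promoter window of 250 bases before and 50 after the start was matched for 42 of 48 members. TTTGAA, on either strand, was in 31 of 42 (73.8%), against 20.2% of the 27025 genes with a window, and CCAAT was in 31 of 42 (73.8%), against 41.1%. Both were in 26 of 42 (61.9%), against 7.97%. TTTGAA began within 50 bases of the start site in 28 members, as at position -23 in Top2a and -19 in Kif11. It was in 23 of the 29 matched members called lower in Fraction 1 (79.3%) and in 8 of the 13 not called (61.5%), a difference that was not tested. Cks2 holds no TTTGAA in its window, and Ube2s holds neither motif. These are matches of letters and say nothing of whether a factor is bound.

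Few of the mitosis genes differed among Fraction 2, Fraction 3 and DZ, and at equal totals Cdc25b and Bub1b were the only ones called. Changes here and below are log2 fold changes of level + 1 at equal totals with their SE, and adjusted p-values are those of limma over all genes tested, a gene being called under 0.05. Adding 1 shrinks the changes of genes with low levels, so these changes do not rank genes by the ratio of their levels. In Fraction 3 vs DZ no member was called higher and 1 lower, where 0.572% and 0.483% of the 11190 genes tested were called, and 6 members (12.5%) had an unadjusted limma p under 0.05, as did 1123 of the 11190 genes. In Fraction 2 vs DZ 1 member was called higher and 1 lower, against 1.66% and 1.84% of all genes. In Fraction 2 vs Fraction 3 none was called in either direction, against 0.438% and 0.25% of all genes, and 4 members (8.33%) had an unadjusted limma p under 0.05, as did 11.2% of all genes. These counts lie near those of all genes. The median log2 fold change of the 48 was -0.07 in Fraction 3 vs DZ, -0.09 in Fraction 2 vs DZ and 0.02 in Fraction 2 vs Fraction 3, beside 0, 0.0063 and 0.00017 over all genes tested. These comparisons share libraries and are not independent of each other. As deposited, Bub1b and Cks2 were called higher in Fraction 2 vs DZ, where 3.03% of all genes were called higher and 0.42% lower. Bub1b and Ube2c were called higher in Fraction 2 vs Fraction 3, against 2.67% and 0.0179%, and no member was called lower in either.

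Cdc25b, the phosphatase that activates Cdk1 at mitotic entry, was the only one of the 48 called lower in Fraction 3 vs DZ and in Fraction 2 vs DZ. It lies at chr2:131186949-131198497 on the plus strand of mm10. It and Ube2s are described singly because of their values. Its level was 0.466, 1.18 and 1.45 in GC-PB, 1.06, 1.61 and 0.985 in Fraction 1, 3.73, 4.15 and 3.61 in Fraction 2, 5.21, 4.56 and 4.58 in Fraction 3, and 10.1, 8.83 and 8.39 in DZ. Each DZ library was above each of the 12 others, and the Fraction 3 libraries were all above those of Fraction 2. The log2 fold change was -1.06 ± 0.19 (SE, adjusted p = 0.00152) in Fraction 2 vs DZ, a call that held without any 1 library, with values of -1.11 to -0.99. In Fraction 3 vs DZ it was -0.80 ± 0.19 (SE, adjusted p = 0.0369), and this call was lost without any 1 of the 6 libraries, with values of -0.86 to -0.73. As deposited the values were -0.76 in Fraction 2 and -0.84 in Fraction 3, neither called. In Fraction 1 vs Fraction 2, which crosses the divide in sex and constant, Cdc25b was at -1.13 ± 0.19 (SE, adjusted p = 0.000478). As deposited this value was -0.17, not called.

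Bub1b, which encodes the checkpoint kinase-like protein BubR1, was called higher in Fraction 2 vs DZ. It had levels of 2.33, 2.76 and 2.27 in GC-PB, 3.29, 2.04 and 1.97 in Fraction 1, 6.38, 4.96 and 5.25 in Fraction 2, 3.62, 3.15 and 4.23 in Fraction 3, and 2.88, 3.04 and 3.47 in DZ. All 3 Fraction 2 libraries were above every other library. Its log2 fold change was 0.66 ± 0.17 (SE, adjusted p = 0.037) in Fraction 2 vs DZ, and the call was lost without any 1 of the 6 libraries, with values of 0.57 to 0.72. In Fraction 2 vs Fraction 3 the value was 0.49 ± 0.17 (SE, adjusted p = 0.262), which did not pass the test. Bub1b then fell in Fraction 1 vs Fraction 2, at -0.94 ± 0.17 (SE, adjusted p = 0.00137) at equal totals, but was 0.21 as deposited. In GC-PB vs Fraction 1 the value was 0.03 ± 0.17 (SE, adjusted p = 0.937).

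**Figure D3:**
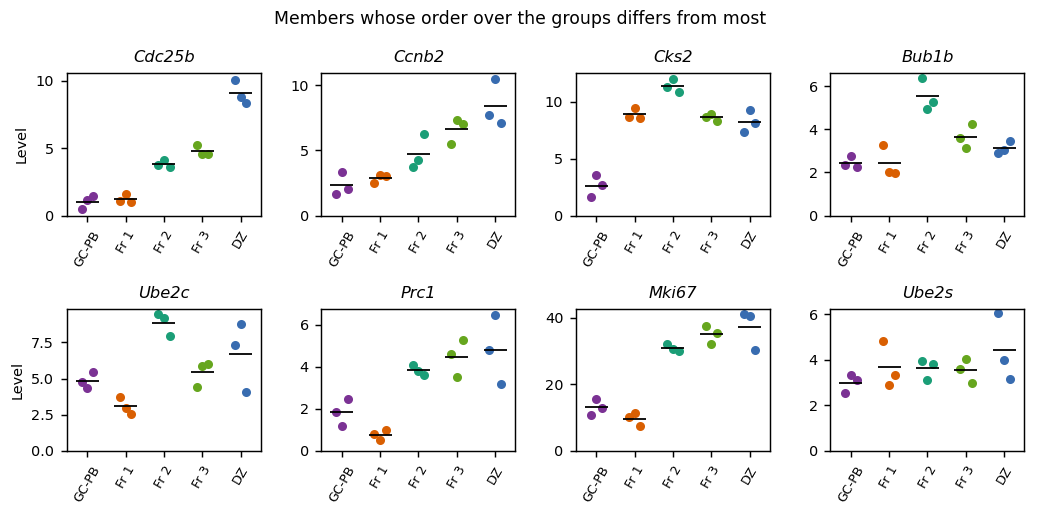
Level at equal totals (vertical axes, from 0) of 8 members, chosen after their values were seen. Cdc25b and Ccnb2 are among the 10 members whose means rose from GC-PB through Fraction 1, Fraction 2 and Fraction 3 to DZ. The title of the figure therefore does not hold for them. Points are libraries and lines are group means, with GC-PB left and DZ right. Cdc25b is lower in Fraction 2 and Fraction 3 than in DZ, Bub1b and Ube2c are highest in Fraction 2, Cks2 is lowest in GC-PB, and Prc1, Ube2c and Mki67 are lowest in Fraction 1.

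At equal totals, Fraction 1 held less of nearly every mitosis gene than Fraction 2: 33 members were called lower and none higher, against 5.25% and 3.79% of all genes tested, and all 48 fold changes were below 0. Of the 48, 45 (93.8%) had an unadjusted limma p under 0.05, as did 21.1% of all genes. The median log2 fold change was -0.84, beside -0.04 over all genes, and values ran from -1.60 for Mki67 to -0.0026 for Ube2s. Adding 1 shrinks the changes of low levels more. Prc1, at -1.45, averaged 0.782 in Fraction 1 and 3.84 in Fraction 2. Mki67 averaged 9.72 and 31.0, a smaller drop by ratio. In 46 of 48 members every Fraction 1 library lay below every Fraction 2 library, as it did for 16.3% of all genes tested. The 15 not called were Ccnb1, Ccnb2, Cdc25c, Cks2, Aurka, Mad2l1, Birc5, Cdca8, Cenpf, Kif22, Kif2c, Tpx2, Cdc20, Ube2s and Ncapg. Directions depended on the scale: as deposited 35 of 48 were above 0. On that scale 10 were called higher and 1 lower, where 54.7% and 0.563% of all genes were called. The median as deposited was 0.15, beside 0.64 over all genes. The members thus lay 0.49 below the median gene as deposited and 0.80 below it at equal totals. The 1 added to each value before the log weighs differently on these scales, so the distances are not like for like. Of the 33 called lower at equal totals, 20 were above 0 as deposited. The 10 called higher as deposited were Ube2s (1.24), Cks2 (1.04), Cdc20 (0.83), Ccna2 (0.78), Cdca8 (0.75), Cenpf (0.75), Birc5 (0.65), Ccnb2 (0.65), Ncapg (0.60) and Smc2 (0.53), and the 1 called lower was Prc1 (-0.64). With median ratios 26 were called lower, against 3.53% of all genes, and none higher, against 4.92%, and the calls of Aspm, Ccna2, Kif4, Kif20a, Plk1, Tacc3 and Ttk were lost. At equal totals 21 were called lower without Fraction 2 replicate 2, and 22 to 28 without any other of the 6 libraries.

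GC-PB differed from Fraction 1 in some of the members at equal totals: 12 were called lower and 3 higher, against 22.3% and 14.1% of all genes tested. The median of the 48 was -0.25, beside -0.06 over all genes, and 40 of 48 were below 0. In 13 members every GC-PB library lay below every Fraction 1 library (26.7% of all genes), and in 3 every one lay above (16.1%). The share of members called lower was thus near that of all genes. With median ratios 6 were called lower and 3 higher, against 17.5% and 18.7% of all genes, and the calls of Aurkb, Ccnb1, Kif22, Kif23, Ncapg and Top2a were lost. The median of the 48 with median ratios was -0.09, beside 0 over all genes. As deposited 36 were called lower and none higher, against 45.8% and 11.2%. The 12 lower calls were 6 without GC-PB replicate 1, and 8 to 13 without any other library. The 3 higher calls were 0 without GC-PB replicate 3, 1 without Fraction 1 replicate 2, Fraction 1 replicate 3 or GC-PB replicate 1, and 2 without GC-PB replicate 2.

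**Figure D4:**
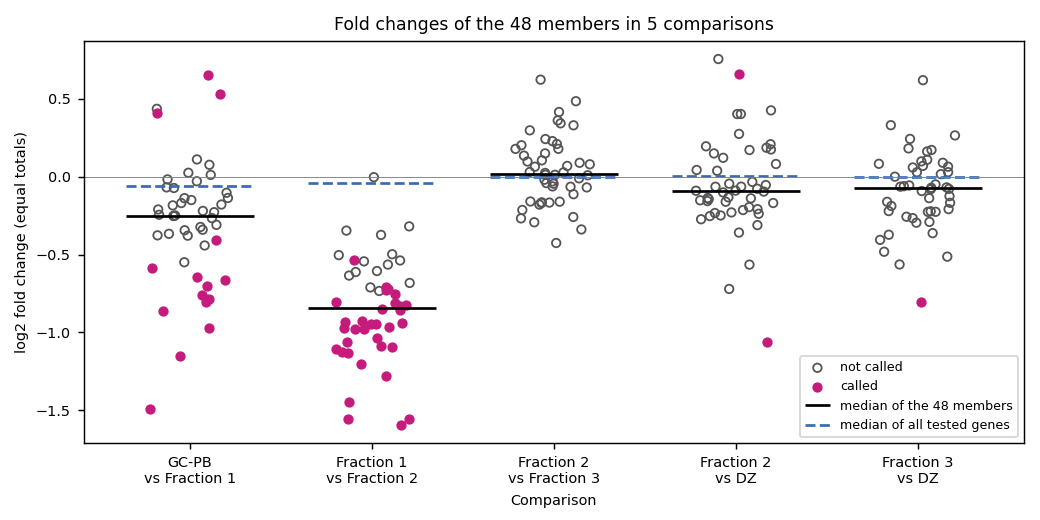
log2 fold changes at equal totals (vertical axis) of the 48 members in 5 comparisons. Filled points passed limma's test at an adjusted p under 0.05, open points did not, the solid line is the median of the members and the dashed line that of all genes tested. In Fraction 1 vs Fraction 2 the members lie below 0 with a median of -0.84 (0.15 in deposited units), and in the 3 comparisons among Fraction 2, Fraction 3 and DZ they scatter around 0.

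Among the kinase and cyclins of mitotic entry, 3 of 7 fell in Fraction 1 vs Fraction 2 and 3 of 7 fell in GC-PB vs Fraction 1. These counts and those of the other roles stand beside 5.25% and 22.3% of all genes called lower, so that a role of 7 genes with 2 lower calls in GC-PB vs Fraction 1 is near the share of all genes. Cdk1, the kinase itself (chr10:69335146-69352938, minus strand), had levels of 1.86, 3.35 and 2.27 in GC-PB, 3.18, 2.26 and 2.71 in Fraction 1, 7.1, 6.34 and 6.35 in Fraction 2, 5.06, 5.08 and 6.16 in Fraction 3, and 8.01, 5.52 and 4.05 in DZ. All GC-PB and Fraction 1 libraries were below all others. Its change was -1.04 ± 0.20 (SE, adjusted p = 0.00171) in Fraction 1 vs Fraction 2, and -0.10 ± 0.20 (SE, adjusted p = 0.735) in GC-PB vs Fraction 1, where the libraries overlapped. Ccna2, cyclin A2, which acts in S phase and G2, had levels of 2.1, 3.35 and 2.69 in GC-PB, 6.94, 5.37 and 4.92 in Fraction 1, 8.19, 7.84 and 10.2 in Fraction 2, 8.97, 7.88 and 8.98 in Fraction 3, and 9.13, 7.45 and 6.36 in DZ. Its groups ran in steps, with each GC-PB library below each Fraction 1 library and each of these below each Fraction 2 library. It fell in Fraction 1, at -0.53 ± 0.17 (SE, adjusted p = 0.048), and in GC-PB, at -0.87 ± 0.17 (SE, adjusted p = 0.000254). The Fraction 1 call was lost without any 1 of 5 of the 6 libraries (all but Fraction 1 replicate 1), with values of -0.60 to -0.43. As deposited, Fraction 1 was higher than Fraction 2 in Ccna2, at 0.78, and in Cdk1, at 0.14.

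The B cyclins are given one by one, and a difference between them was not tested. Ccnb1, the main partner of Cdk1 in mitosis, had levels of 0.699, 2.36 and 1.86 in GC-PB, 4.71, 3.76 and 2.09 in Fraction 1, 4.94, 7.27 and 5.03 in Fraction 2, 4.2, 5.43 and 5.11 in Fraction 3, and 4.96, 6.9 and 3.18 in DZ. It overlapped widely among Fraction 2, Fraction 3 and DZ. The value was -0.61 ± 0.26 (SE, adjusted p = 0.181) in Fraction 1 vs Fraction 2, which did not pass, whereas in GC-PB vs Fraction 1 it fell, at -0.79 ± 0.26 (SE, adjusted p = 0.0227), with GC-PB replicate 2 above Fraction 1 replicate 3. Leaving out GC-PB replicate 1, Fraction 1 replicate 1 or Fraction 1 replicate 2 removed that call, with values of -0.73 to -0.50. Ccnb2, cyclin B2, had levels of 1.63, 3.35 and 2.07 in GC-PB, 2.47, 3.12 and 3.08 in Fraction 1, 3.73, 4.27 and 6.24 in Fraction 2, 5.5, 7.36 and 7.04 in Fraction 3, and 7.69, 10.5 and 7.09 in DZ. Its mean was lowest in Fraction 2 and highest in DZ among the groups with higher levels, but Fraction 2 vs DZ gave -0.72 ± 0.20 (SE, adjusted p = 0.0518), which did not pass, and DZ and Fraction 3 libraries overlapped. Neither -0.54 ± 0.20 (SE, adjusted p = 0.105) in Fraction 1 vs Fraction 2 nor -0.24 ± 0.20 (SE, adjusted p = 0.385) in GC-PB vs Fraction 1 passed. Cdc25c, a second phosphatase of Cdk1, stood at group means of 0.347 in GC-PB and 0.541 in Fraction 1 and was not called in any of the 5 comparisons.

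Cks2, the small subunit that docks Cdk1 to its substrates, was apart from the other members. Its levels were 1.63, 3.55 and 2.69 in GC-PB, 8.71, 9.46 and 8.62 in Fraction 1, 11.3, 11.99 and 10.8 in Fraction 2, 8.68, 8.94 and 8.28 in Fraction 3, and 7.37, 9.25 and 8.1 in DZ. Fraction 1 overlapped Fraction 3 and DZ, and all GC-PB libraries were below all of the 12 others. The change was -0.32 ± 0.16 (SE, adjusted p = 0.265) in Fraction 1 vs Fraction 2, which did not pass, but was 1.04 (adjusted p = 0.000229) as deposited, a call in the opposite direction. It was -1.49 ± 0.16 (SE, adjusted p = 1.8e-07) in GC-PB vs Fraction 1, the lowest of the 48 there on level + 1. By ratio of group means Mad2l1 fell about as far, at 0.855 in GC-PB and 3.07 in Fraction 1. The means of Cks2 were 2.62 and 8.93. The GC-PB call of Cks2 held without any 1 library and on the deposited scale, at -2.27.

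Of the 7 mitotic kinases and checkpoint genes, 5 fell in Fraction 1 vs Fraction 2, against 5.25% of all genes, and 2 in GC-PB vs Fraction 1 (28.6%), near the 22.3% of all genes. With median ratios these counts were 3 and 1. Plk1, the Polo kinase, had levels of 1.16, 1.18 and 4.75 in GC-PB, 1.65, 1.83 and 2.09 in Fraction 1, 5.42, 4.96 and 3.5 in Fraction 2, 4.78, 6.83 and 4.93 in Fraction 3, and 7.05, 5.24 and 3.62 in DZ. GC-PB replicate 3 lay among the Fraction 2, Fraction 3 and DZ libraries, apart from the other 2 of its group. Plk1 fell in Fraction 1, at -0.96 ± 0.29 (SE, adjusted p = 0.0382), a call lost without any 1 of the libraries other than Fraction 2 replicate 3, with values of -1.02 to -0.86, and 0.13 as deposited. In GC-PB vs Fraction 1 it was 0.08 ± 0.29 (SE, adjusted p = 0.872). Mad2l1, the checkpoint protein Mad2, had levels of 0.931, 0.394 and 1.24 in GC-PB, 2.47, 3.65 and 3.08 in Fraction 1, 5.18, 6.0 and 4.71 in Fraction 2, 6.66, 5.78 and 4.4 in Fraction 3, and 7.69, 5.38 and 3.76 in DZ. Its groups separated in 2 steps, Fraction 1 below the groups with higher levels and GC-PB below Fraction 1. The first step, -0.63 ± 0.22 (SE, adjusted p = 0.0752), did not pass, and the second, -1.15 ± 0.22 (SE, adjusted p = 0.00023), did and held without any 1 library. Aurka, the Aurora kinase of the spindle poles, had levels of 0, 0.788 and 1.24 in GC-PB, 0.824, 1.18 and 0.616 in Fraction 1, 1.81, 2.65 and 1.75 in Fraction 2, 1.59, 2.28 and 2.64 in Fraction 3, and 2.24, 2.48 and 2.31 in DZ, from 0 to 23 molecules a library. Its values were -0.71 ± 0.25 (SE, adjusted p = 0.082) in Fraction 1 vs Fraction 2 and -0.23 ± 0.25 (SE, adjusted p = 0.528) in GC-PB vs Fraction 1, and neither passed. Aurkb, the Aurora kinase of centromeres, and the checkpoint kinases Bub1 and Ttk fell in Fraction 1, with changes of -0.98 to -0.73, and of these Aurkb also fell in GC-PB, at -0.64 ± 0.23 (SE, adjusted p = 0.0336). Of these Fraction 1 calls, that of Ttk was lost without any 1 of the 6 libraries (-0.82 to -0.58), that of Aurkb without replicate 3 of Fraction 1 or replicate 2 or 3 of Fraction 2 (-0.89 to -0.84), and that of Bub1 without replicate 2 of Fraction 1 or replicate 1 or 2 of Fraction 2 (-0.95 to -0.60). The GC-PB call of Aurkb was lost without GC-PB replicate 1 or Fraction 1 replicate 1 (-0.47 to -0.45).

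Among chromosomal passenger and centromere genes 4 of 7 fell in Fraction 1 vs Fraction 2 and 3 of 7 in GC-PB vs Fraction 1. Cenpe, the kinesin that moves chromosomes at kinetochores (chr3:135212537-135273611, plus strand), had levels of 0.699, 1.38 and 1.24 in GC-PB, 1.88, 3.12 and 2.71 in Fraction 1, 9.99, 7.96 and 10.4 in Fraction 2, 11.4, 10.5 and 10.04 in Fraction 3, and 12.8, 11.2 and 9.4 in DZ. Each GC-PB library was below each Fraction 1 library, and these were below all others by a wide margin. It fell at both steps, with changes of -1.56 ± 0.17 (SE, adjusted p = 6.27e-06) in Fraction 1 and -0.76 ± 0.17 (SE, adjusted p = 0.00129) in GC-PB, and as deposited the values were -0.39 and -1.48. Cenpf, a large outer kinetochore protein, had levels of 1.88, 2.15 and 2.69 in GC-PB, 4.34, 4.21 and 5.39 in Fraction 1, 5.87, 7.04 and 8.84 in Fraction 2, 4.72, 6.5 and 6.88 in Fraction 3, and 9.86, 10.5 and 6.38 in DZ. Fraction 1 replicate 3 was above Fraction 3 replicate 1. The Fraction 1 value was -0.54 ± 0.19 (SE, adjusted p = 0.0821), which did not pass, and the GC-PB value, -0.80 ± 0.19 (SE, adjusted p = 0.00177), passed. Cdca8, the passenger protein borealin, had levels of 0.699, 1.97 and 1.86 in GC-PB, 4.59, 4.41 and 2.59 in Fraction 1, 5.54, 6.46 and 5.25 in Fraction 2, 6.66, 5.26 and 6.34 in Fraction 3, and 8.49, 9.66 and 5.35 in DZ. It followed the same course, with -0.50 ± 0.23 (SE, adjusted p = 0.204) in Fraction 1 vs Fraction 2, not called, and -0.97 ± 0.23 (SE, adjusted p = 0.00167) in GC-PB vs Fraction 1, called. The GC-PB calls of these 3 genes held without any 1 library. Birc5 (survivin), the centromeric histone Cenpa and the Ndc80 complex members Nuf2 and Ndc80 had group means between 0.619 and 5.93, and all but Birc5 fell in Fraction 1 (-0.94 to -0.82). None of these 4 was called in GC-PB vs Fraction 1.

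The spindle motors fell in 5 of 7 cases in Fraction 1 vs Fraction 2, against 5.25% of all genes, and in 2 of 7 (28.6%) in GC-PB vs Fraction 1, near the 22.3% of all genes. With median ratios the counts were 3 of 7 and 0 of 7, and as deposited all 7 were above 0 in Fraction 1 vs Fraction 2, with none called. Kif11, the kinesin that pushes spindle poles apart, had levels of 3.06, 1.82 and 1.95 in GC-PB, 2.45, 2.31 and 2.14 in Fraction 1, 4.66, 4.19 and 4.87 in Fraction 2, 5.79, 5.96 and 6.38 in Fraction 3, and 5.63, 6.01 and 3.52 in DZ. GC-PB replicate 1 was the highest of the 6 GC-PB and Fraction 1 libraries, the reverse of its place for most members. Kif11 fell in Fraction 1, at -0.76 ± 0.18 (SE, adjusted p = 0.0102) and did not pass in GC-PB, at -0.03 ± 0.18 (SE, adjusted p = 0.93). Kif23, a subunit of the centralspindlin complex of the midzone, had levels of 0.699, 1.97 and 1.03 in GC-PB, 2.47, 3.12 and 2.09 in Fraction 1, 6.98, 6.0 and 6.24 in Fraction 2, 7.52, 7.88 and 8.8 in Fraction 3, and 6.73, 8.56 and 4.05 in DZ. It fell at both steps, with changes of -1.06 ± 0.22 (SE, adjusted p = 0.0031) in Fraction 1 and -0.70 ± 0.22 (SE, adjusted p = 0.0139) in GC-PB. Leaving out GC-PB replicate 1 or Fraction 1 replicate 2 removed the GC-PB call, at -0.59 to -0.53. Kif20b, a kinesin of cytokinesis, had levels of 1.4, 1.38 and 1.24 in GC-PB, 2.12, 1.61 and 1.72 in Fraction 1, 3.85, 4.96 and 4.27 in Fraction 2, 6.08, 3.68 and 3.7 in Fraction 3, and 4.32, 4.14 and 2.89 in DZ. GC-PB lay below Fraction 1 in every library, but the change there, -0.27 ± 0.19 (SE, adjusted p = 0.297), did not pass, while Fraction 1 fell, at -0.93 ± 0.19 (SE, adjusted p = 0.00291). As deposited, Fraction 1 vs Fraction 2 gave 0.39 for Kif11, 0.11 for Kif23 and 0.16 for Kif20b. Kif20a, Kif22, Kif2c and Kif4 had group means of 0.478 to 4.38, and Kif20a and Kif4 of these fell in Fraction 1 and Kif22 in GC-PB, at -0.58 ± 0.22 (SE, adjusted p = 0.0387). The Fraction 1 calls were each lost without any 1 of 5 libraries, all but Fraction 2 replicate 3 for Kif20a (-0.85 to -0.65) and all but Fraction 2 replicate 2 for Kif4 (-0.84 to -0.70). The Kif22 call was lost without GC-PB replicate 1, Fraction 1 replicate 1 or Fraction 1 replicate 2 (-0.56 to -0.31).

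Spindle assembly genes fell in 4 of 5 cases in Fraction 1 vs Fraction 2, and none was called in GC-PB vs Fraction 1, where 1 had an unadjusted limma p under 0.05. Tpx2, which activates Aurora A on microtubules, had levels of 1.86, 0.788 and 2.27 in GC-PB, 3.53, 4.19 and 1.23 in Fraction 1, 5.9, 4.5 and 5.36 in Fraction 2, 5.35, 7.18 and 4.05 in Fraction 3, and 5.12, 8.14 and 5.64 in DZ. Fraction 1 replicate 2 was above Fraction 3 replicate 3, and the replicates of GC-PB and Fraction 1 overlapped. Neither -0.73 ± 0.27 (SE, adjusted p = 0.108) in Fraction 1 nor -0.55 ± 0.27 (SE, adjusted p = 0.13) in GC-PB passed. Nusap1, a microtubule bundling protein (chr2:119618298-119651244, plus strand), had levels of 0, 1.77 and 3.51 in GC-PB, 1.53, 1.93 and 1.85 in Fraction 1, 7.22, 7.38 and 6.78 in Fraction 2, 7.09, 4.03 and 5.46 in Fraction 3, and 5.61, 5.24 and 4.63 in DZ. It ran from no molecule in GC-PB replicate 1 to 3.51 in GC-PB replicate 3. Nusap1 fell in Fraction 1, at -1.56 ± 0.33 (SE, adjusted p = 0.00434), and was -0.25 ± 0.33 (SE, adjusted p = 0.608) in GC-PB vs Fraction 1. Tacc3, which stabilizes spindle microtubules, had levels of 0.931, 1.58 and 1.65 in GC-PB, 3.18, 2.04 and 1.6 in Fraction 1, 4.94, 3.92 and 3.94 in Fraction 2, 3.33, 3.33 and 5.28 in Fraction 3, and 4.32, 5.66 and 3.91 in DZ. Tacc3 fell in Fraction 1, at -0.71 ± 0.21 (SE, adjusted p = 0.0363), a call lost without any 1 library other than Fraction 1 replicate 1 (-0.75 to -0.56), and was 0.42 as deposited. GC-PB vs Fraction 1 gave -0.44 ± 0.21 (SE, adjusted p = 0.107). The other 2, Hmmr and Aspm, fell in Fraction 1, at -1.09 and -0.98, and the call of Aspm was lost without Fraction 1 replicate 3 or any 1 of the Fraction 2 libraries (-1.05 to -0.75).

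All 5 cytokinesis genes fell in Fraction 1 vs Fraction 2, and 1 of them rose in GC-PB vs Fraction 1. Prc1, which bundles microtubules of the central spindle (chr7:80294450-80316259, plus strand), had levels of 1.86, 1.18 and 2.48 in GC-PB, 0.824, 0.537 and 0.985 in Fraction 1, 4.09, 3.81 and 3.61 in Fraction 2, 4.63, 3.5 and 5.28 in Fraction 3, and 4.8, 6.49 and 3.18 in DZ. Each GC-PB library was above each Fraction 1 library, and both groups were below all others. The change was -1.45 ± 0.22 (SE, adjusted p = 0.000184) in Fraction 1 and 0.66 ± 0.22 (SE, adjusted p = 0.0211) in GC-PB. As deposited the GC-PB value was 0.37, not called. Few molecules lay behind it, 6 to 12 a library in GC-PB and 5 to 8 in Fraction 1. The rise in GC-PB was not called without Fraction 1 replicate 2, GC-PB replicate 1 or GC-PB replicate 3, at 0.50 to 0.64. Racgap1, the other subunit of centralspindlin, had levels of 1.16, 1.97 and 2.69 in GC-PB, 1.65, 2.26 and 1.85 in Fraction 1, 4.82, 3.57 and 5.58 in Fraction 2, 4.05, 4.91 and 4.58 in Fraction 3, and 5.61, 4.0 and 4.92 in DZ. Racgap1 fell in Fraction 1, at -0.94 ± 0.20 (SE, adjusted p = 0.00373) and was -0.02 ± 0.20 (SE, adjusted p = 0.971) in GC-PB vs Fraction 1. Cep55, which organizes abscission, had levels of 0.699, 1.58 and 0.62 in GC-PB, 1.88, 0.967 and 1.11 in Fraction 1, 3.49, 3.69 and 2.95 in Fraction 2, 3.62, 2.8 and 2.11 in Fraction 3, and 6.09, 4.55 and 3.04 in DZ. DZ replicate 1 was well above DZ replicate 3, and Fraction 1 fell below Fraction 2, at -0.93 ± 0.23 (SE, adjusted p = 0.0146). Leaving out Fraction 1 replicate 2 or 3, or Fraction 2 replicate 1 or 2, removed this call, at -0.91 to -0.83, and GC-PB vs Fraction 1 gave -0.25 ± 0.23 (SE, adjusted p = 0.445). As deposited, Fraction 1 vs Fraction 2 gave 0.15 for Racgap1 and 0.04 for Cep55. Ect2 and Anln were at group means of 0.230 to 2.22, and the libraries of Anln lay above in GC-PB but did not pass, at 0.44 ± 0.22 (SE, adjusted p = 0.127). Their Fraction 1 calls were lost without any 1 library other than Fraction 1 replicate 1 for Ect2 (-0.86 to -0.66), and without replicate 2 of Fraction 2 or replicate 2 or 3 of Fraction 1 for Anln (-0.85 to -0.79).

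The genes of ubiquitin transfer and mitotic exit split. Ube2c, the conjugating enzyme that starts ubiquitin chains for the anaphase-promoting complex, had levels of 4.74, 4.36 and 5.47 in GC-PB, 3.71, 2.96 and 2.54 in Fraction 1, 9.49, 9.18 and 7.91 in Fraction 2, 4.44, 5.85 and 5.99 in Fraction 3, and 7.35, 8.75 and 4.06 in DZ. Fraction 2 replicates 1 and 2 were the highest of all libraries, and the Fraction 1 libraries the lowest. Ube2c fell in Fraction 1, at -1.28 ± 0.20 (SE, adjusted p = 0.000256) and rose in GC-PB, at 0.53 ± 0.20 (SE, adjusted p = 0.0403), although GC-PB vs Fraction 1 was -0.02 as deposited. The rise was not called without Fraction 1 replicate 2, Fraction 1 replicate 3, GC-PB replicate 1 or GC-PB replicate 3 (0.43 to 0.54). Cdca3, a trigger of mitotic entry, had levels of 1.63, 3.94 and 3.51 in GC-PB, 2.47, 3.33 and 2.09 in Fraction 1, 8.31, 5.65 and 6.35 in Fraction 2, 9.12, 6.66 and 5.11 in Fraction 3, and 8.17, 8.14 and 6.51 in DZ. Cdca3 fell in Fraction 1, at -1.10 ± 0.22 (SE, adjusted p = 0.00327), but was 0.08 as deposited. It was 0.11 ± 0.22 (SE, adjusted p = 0.748) in GC-PB vs Fraction 1. Cdc20, the activator of the anaphase-promoting complex at anaphase, had levels of 2.1, 2.76 and 2.69 in GC-PB, 3.18, 2.47 and 3.2 in Fraction 1, 4.45, 4.27 and 3.61 in Fraction 2, 5.64, 4.91 and 3.7 in Fraction 3, and 6.73, 8.14 and 5.06 in DZ. It was below in all Fraction 1 libraries, but neither -0.37 ± 0.18 (SE, adjusted p = 0.233) in Fraction 1 nor -0.17 ± 0.18 (SE, adjusted p = 0.511) in GC-PB passed. Ube2s, the enzyme that extends the chains begun by Ube2c, had levels of 2.56, 3.35 and 3.1 in GC-PB, 4.82, 2.9 and 3.32 in Fraction 1, 3.97, 3.11 and 3.83 in Fraction 2, 3.62, 4.03 and 2.99 in Fraction 3, and 6.09, 4.0 and 3.18 in DZ. Its libraries overlapped in both comparisons, with -0.0026 ± 0.20 (SE, adjusted p = 1) in Fraction 1 vs Fraction 2 and -0.21 ± 0.20 (SE, adjusted p = 0.45) in GC-PB vs Fraction 1.

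Of the 6 genes of chromosome structure, among which Mki67 is counted, 5 fell in Fraction 1 vs Fraction 2, 2 fell in GC-PB vs Fraction 1 and 1 rose there. Mki67, which encodes the antigen Ki-67 of the chromosome surface (chr7:135689784-135716361, minus strand), had levels of 10.9, 15.8 and 12.8 in GC-PB, 10.4, 11.3 and 7.51 in Fraction 1, 32.3, 30.7 and 30.1 in Fraction 2, 37.5, 32.1 and 35.6 in Fraction 3, and 41.2, 40.7 and 30.2 in DZ. The 6 libraries of GC-PB and Fraction 1 were far below the other 9, and GC-PB replicates 2 and 3 were above all Fraction 1 libraries. It fell in Fraction 1, at -1.60 ± 0.15 (SE, adjusted p = 1.06e-06), and was -0.23 as deposited. In GC-PB it rose, at 0.41 ± 0.15 (SE, adjusted p = 0.0368), but was -0.24 as deposited, and the rise was not called without Fraction 1 replicate 3, GC-PB replicate 2 or GC-PB replicate 3 (0.25 to 0.42). Top2a, the topoisomerase that untangles sister chromatids (chr11:98992943-99024189, minus strand), had levels of 7.22, 9.85 and 11.2 in GC-PB, 13.2, 12.04 and 12.7 in Fraction 1, 28.7, 30.6 and 31.7 in Fraction 2, 32.99, 28.6 and 28.7 in Fraction 3, and 31.6, 31.6 and 21.4 in DZ. Each GC-PB library was below each Fraction 1 library, and DZ replicate 3 was the lowest of the other groups. It fell in Fraction 1, at -1.20 ± 0.15 (SE, adjusted p = 2.55e-05) and in GC-PB, at -0.41 ± 0.15 (SE, adjusted p = 0.0351). The GC-PB call was lost without GC-PB replicate 1 or any 1 of the Fraction 1 libraries (-0.44 to -0.25). Smc4, a core subunit of condensin (chr3:69004738-69034623, plus strand), had levels of 5.12, 10.4 and 8.67 in GC-PB, 11.6, 9.14 and 9.73 in Fraction 1, 23.6, 23.6 and 21.6 in Fraction 2, 28.9, 27.9 and 26.6 in Fraction 3, and 28.5, 26.9 and 22.6 in DZ. It fell in Fraction 1, at -1.10 ± 0.17 (SE, adjusted p = 0.000203), and its change in GC-PB, -0.34 ± 0.17 (SE, adjusted p = 0.12), did not pass. As deposited, Fraction 1 vs Fraction 2 gave 0.19 for Top2a and 0.27 for Smc4. The condensin subunits Smc2 and Ncapd2 fell in Fraction 1, at -0.72 and -1.12, and Ncapg (-0.61, not called) fell in GC-PB, at -0.66 ± 0.21 (SE, adjusted p = 0.0142). The Smc2 call was lost without replicate 1 or 2 of Fraction 1 or replicate 2 or 3 of Fraction 2 (-0.71 to -0.62), and as deposited Smc2 was 0.53, called higher, and Ncapd2 0.07. The Ncapg call was lost without GC-PB replicate 1, GC-PB replicate 2 or Fraction 1 replicate 2 (-0.60 to -0.53), and with median ratios no gene of this role was called lower in GC-PB.

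**Figure D5:**
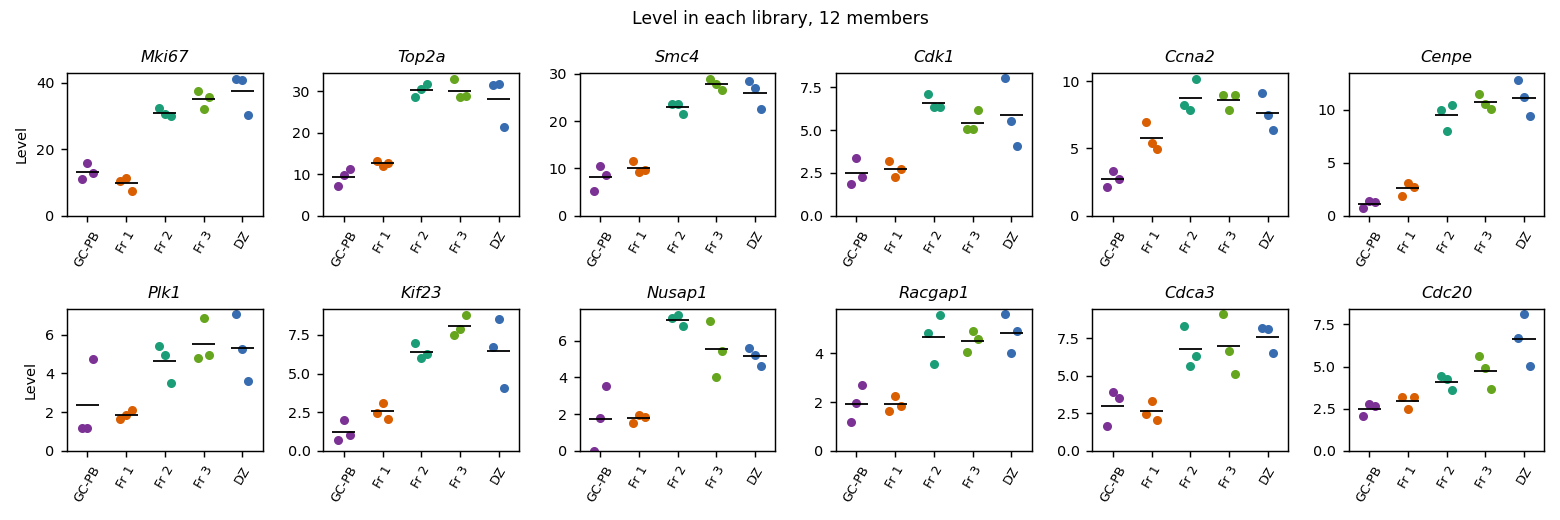
Level at equal totals (vertical axes, from 0) of 12 members given in full, in each library. Points are libraries and lines are group means, with GC-PB left and DZ right. In 10 of the 12 panels every GC-PB and Fraction 1 library lies below every library of the other groups, the exceptions being Ccna2 and Plk1.

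Genes of the same machinery outside the 48 were also called lower in Fraction 1, at equal totals. In Fraction 1 vs Fraction 2, 10 of 35 other kinetochore genes, 14 of 38 other spindle and cytokinesis genes, 6 of 16 other condensin and cohesin genes, 1 of 16 genes of the anaphase-promoting complex list, 8 of 28 genes of G2/M transcription and 8 of 38 DNA replication genes were called lower, and none higher, against 5.25% and 3.79% of all genes. Median log2 fold changes were -0.44, -0.53, -0.59, -0.18, -0.37 and -0.42 in that order, beside -0.04 over all genes. The anaphase-promoting complex list is not limited to subunits of the complex, and its 1 lower call was Fbxo5. As deposited the directions turned: 9, 11, 10, 13, 9 and 21 were called higher and 0, 0, 1, 0, 1 and 0 lower, against 54.7% and 0.563% of all genes, with medians of 0.41, 0.26, 0.65, 0.88, 0.39 and 0.72, beside 0.64. With median ratios 6, 6, 3, 0, 6 and 3 were called lower, against 3.53% of all genes. On that scale 1 DNA replication gene was called higher, against 4.92% of all genes. Incenp, the scaffold of the chromosomal passengers, averaged 2.06 ± 0.394 in Fraction 1 and 6.01 ± 0.884 in Fraction 2 (SD, n = 3), a change of -1.20 ± 0.19 (SE, adjusted p = 0.000396). Ckap2l, a spindle protein, averaged 0.945 ± 0.405 in Fraction 1 and 3.79 ± 0.287 in Fraction 2 (SD, n = 3), a change of -1.32 ± 0.19 (SE, adjusted p = 0.000155). Esco2, which acetylates cohesin, averaged 0.734 ± 0.138 in Fraction 1 and 4.32 ± 0.30 in Fraction 2 (SD, n = 3), a change of -1.62 ± 0.23 (SE, adjusted p = 0.000126). Mybl1, the A-Myb transcription factor, averaged 0.50 ± 0.0341 in Fraction 1 and 6.54 ± 0.352 in Fraction 2 (SD, n = 3), a change of -2.33 ± 0.16 (SE, adjusted p = 8.71e-09). All 4 were also below 0 as deposited, at -0.08, -0.45, -0.82 and -1.67, and these calls held without any 1 library.

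In GC-PB vs Fraction 1 the lower calls were 6 of 35 kinetochore genes, 9 of 38 spindle and cytokinesis genes, 6 of 16 condensin and cohesin genes, 5 of 16 genes of the anaphase-promoting complex list, 8 of 28 genes of G2/M transcription and 23 of 38 DNA replication genes, against 22.3% of all genes. The higher calls were 0, 1, 0, 0, 2 and 1, against 14.1%. As deposited the lower calls were 20, 21, 12, 12, 14 and 33, against 45.8% of all genes, and with median ratios 5, 7, 5, 3, 8 and 17, against 17.5%. DNA replication genes had the lowest median of these lists, -0.74, beside -0.25 for the 48 members. Tuba1b, an alpha tubulin, averaged 12.96 ± 4.0 in GC-PB and 49.7 ± 0.837 in Fraction 1 (SD, n = 3), a change of -1.90 ± 0.14 (SE, adjusted p = 9.43e-10). Stmn1, which destabilizes microtubules, averaged 3.51 ± 0.22 in GC-PB and 10.9 ± 2.25 in Fraction 1 (SD, n = 3), a change of -1.39 ± 0.14 (SE, adjusted p = 4.84e-08). Mybl2, B-Myb, which with the MuvB complex drives G2/M genes, averaged 0.959 ± 0.461 in GC-PB and 7.19 ± 0.715 in Fraction 1 (SD, n = 3), a change of -2.09 ± 0.24 (SE, adjusted p = 5.53e-07). These 3 calls held without any 1 library, and as deposited the values were -2.63, -2.14 and -3.01. Among Fraction 2, Fraction 3 and DZ the only call over the 6 lists at equal totals was Tuba1b, higher in Fraction 2 vs DZ at 0.52 ± 0.14 (SE, adjusted p = 0.0478), and it was lost without any 1 of the 6 libraries (0.51 to 0.53). As deposited, 2 spindle and cytokinesis genes (Tuba1b and the alpha tubulin Tuba1c) and 1 gene of the anaphase-promoting complex list (Cdc34) were called higher there, and with median ratios none of the 6 lists held a call.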

How the data were processed

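The deposited table gives a signal for 23420 genes in each of 15 libraries, 3 in each of 5 groups. Per the labels' protocols, ERCC spike-ins were added for normalization, cDNA was tagged with molecular barcodes at its poly(A) end, and it was amplified by PCR. The submitters' processing notes name TopHat2 and mm10. How the signal was scaled is not given in the sources used here. Its values are read as molecules times 1 constant per library, of which 91.0% to 92.6% were whole multiples (tolerance 0.02), so counting models were not used.

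Values were brought to equal totals (Rn45s, a ribosomal RNA, left out of the total, target 38594). Genes above 0 in 3 libraries or more, 11190 in all, were fitted on the scale log2(value + 1) by limma 3.58.1 (trend on intensity; R 4.3.3), using 5 group means and 1 shared estimate of spread. Calls were made below 0.05 after Benjamini-Hochberg adjustment. The method was tested on simulated data. Depth was 184103 to 376992 molecules per library. Intervals from counting alone were not used, since error comes from the 3 libraries.

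The members, lists and tests were chosen with earlier results of these data known. Each member had 1 of 8 roles. In each role the 3 members with the highest mean, and Mki67, Cdk1, Ccnb1, Plk1, Aurka and Cdc20, are given in every library, the others by ranges and counts, or singly where called against most members. From other lists, up to 3 called genes with the smallest p could be named. Gene positions are from GENCODE vM21 (GRCm38) and promoters from RefSeq (GRCm38.p6). Alternatives were other scales, pseudocounts, filters, a replicate block, fits on the groups compared, and leaving out each library. Python 3.11.15 with pandas 2.3.3 and matplotlib 3.10.9 made the summaries and figures.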

Additional observations from a re-analysis of the deposited data

How the results depend on the processing

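The scale decided most of what changed. As deposited, members called were 0 lower in Fraction 3 vs DZ (1 at equal totals), 2 higher and 0 lower in Fraction 2 vs DZ (1 and 1), 2 higher in Fraction 2 vs Fraction 3 (0), 10 higher and 1 lower in Fraction 1 vs Fraction 2 (0 and 33), and 0 higher and 36 lower in GC-PB vs Fraction 1 (3 and 12). In Fraction 1 vs Fraction 2, 35 of the 48 had the opposite sign as deposited, 20 of them called lower at equal totals: Ccna2 0.78, Cdk1 0.14, Plk1 0.13, Aurkb 0.13, Bub1b 0.21, Cenpa 0.35, Nuf2 0.11, Kif11 0.39, Kif20a 0.24, Kif20b 0.16, Kif23 0.11, Kif4 0.12, Tacc3 0.42, Cep55 0.044, Racgap1 0.15, Cdca3 0.077, Top2a 0.19, Smc2 0.53, Smc4 0.27 and Ncapd2 0.071. Of the other 15, not called at equal totals, 8 were called higher as deposited. Outside the 48, Fbxo5 0.18, Rad21 0.75, Stmn1 0.43 and Wapal 0.64 did the same, and in GC-PB vs Fraction 1 Ube2c -0.024 and Mki67 -0.24. The unequal library totals are what this scale keeps. With median ratios the counts were 0 lower in Fraction 3 vs DZ, 0 higher in Fraction 2 vs DZ, and 6 lower in GC-PB vs Fraction 1.

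For the other settings the cause was not tested. With Rn45s kept in the total, or with no filter, 1 was higher in GC-PB vs Fraction 1. With a pseudocount of 0.25, 0 were lower in Fraction 3 vs DZ and 0 higher in Fraction 2 vs DZ. With a pseudocount of 4, 2 were higher and 2 lower in Fraction 2 vs DZ and 0 higher in GC-PB vs Fraction 1. With genes of mean at least 1 alone, 2 were higher and 2 lower in Fraction 2 vs DZ. With fits of only the groups compared, 0 were lower in Fraction 3 vs DZ, 0 higher in Fraction 2 vs DZ, and 1 higher and 5 lower in GC-PB vs Fraction 1. Leaving out 1 library gave 0 to 0 lower in Fraction 3 vs DZ, 0 to 1 higher and 1 to 2 lower in Fraction 2 vs DZ, 21 to 28 lower in Fraction 1 vs Fraction 2, and 0 to 3 higher and 6 to 13 lower in GC-PB vs Fraction 1. Of 480 single-gene values with a library left out, 365 kept their call and 115 lost it, and none changed sign.

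The replicate numbers did not pair the samples: over 30 same-numbered pairs, deviations from group means correlated at -0.0429 to 0.0393. With the replicate number as a block, 0 were called lower in Fraction 3 vs DZ and 2 lower in Fraction 2 vs DZ, and 30 lower in Fraction 1 vs Fraction 2. A test on molecule counts was planned and was not run, since too few values were whole molecules. Members with few molecules, such as Anln and Ttk at 1 to 16 a library, limit what could be seen.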
